A study of Mus musculus with 22 samples.

Results

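The miR-15 and miR-16 family was followed in primary mouse hepatocytes treated with cyclosporin A (CsA), an immunosuppressant that blocks calcineurin and is known to injure the liver. Its members were taken by name, as mmu-miR-15a-5p, mmu-miR-15b-5p, mmu-miR-16-5p, mmu-miR-195a-5p and mmu-miR-322-5p (the species prefix is left out below), which are 5 of the 1247 mouse miRNAs on the array. The cells were from the strain C57Bl6, and each of the 22 samples was hybridised to a 1-colour Agilent miRNA array. By the names of the scanner files, CsA was given at 50 µM for 24 h (n = 2) or 48 h (n = 3) and at 10 µM for 24 h (n = 3) or 48 h (n = 3), and cultures in the solvent alone, 0.5% DMSO, were taken at 24 h (n = 5) and 48 h (n = 6). Whether the CsA cultures also held DMSO is not said. The labels also give each culture an unexplained tag of 24 h or 48 h, apart from its culture time. All 10 µM cultures carry the 48 h tag and all 50 µM cultures the 24 h tag, and DMSO cultures carry either. Each dose was compared with all DMSO cultures of its time, whatever their tag. The labels number the cultures Ex.1 to Ex.3, called experiments 1 to 3 here. They call the replicates biological without saying whether each came from a separate animal, so the p-values measure the spread between these cultures. The labels' treatment text names the human line HepG2, whereas every other label names mouse hepatocytes.

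These miRNAs are short RNAs that guide Argonaute proteins to messenger RNAs, mostly through the seed near their 5′ end. In mouse and human the family is best known for repressing cyclins, cyclin-dependent kinases and the survival factor Bcl2, and for slowing entry into the cell cycle. miR-15a and miR-16 are made from the Dleu2 locus, a tumour suppressor region that is often lost in human chronic lymphocytic leukaemia, and miR-15b and a second copy of miR-16 are made from an intron of Smc4, which encodes a condensin subunit. miR-195a restrains heart muscle cell division after birth in the mouse, and miR-322, the mouse counterpart of human miR-424, is made with miR-503 from an X-linked transcript.

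The mature sequences are shown because they set the family apart: bases 2 to 8, in capitals, are the same in all 5 members. They are RefSeq's, on build GRCm38.p6, and all 5 members had an entry.
miR-15a-5p: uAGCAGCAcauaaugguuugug
miR-15b-5p: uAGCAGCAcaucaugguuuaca
miR-16-5p: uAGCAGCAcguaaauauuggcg
miR-195a-5p: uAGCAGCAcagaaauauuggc
miR-322-5p: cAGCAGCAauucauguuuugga
miR-15a-5p lies at chr14:61632075-61632096 on the minus strand, within the span of the long non-coding RNA gene Dleu2. miR-15b-5p lies at chr3:69009775-69009796 on the plus strand, within the span of the protein-coding gene Smc4. miR-16-5p has 1 copy beside each of them, at chr14:61631936-61631957 on the minus strand and at chr3:69009918-69009939 on the plus strand, so a probe for the mature form reads both copies together. miR-195a-5p lies at chr11:70235062-70235082 on the plus strand and miR-322-5p at chrX:53054306-53054327 on the minus strand. Aligned from the 5′ end without gaps, miR-15a-5p and miR-15b-5p differ at 4 of 22 positions, the first of them position 12. miR-16-5p and miR-195a-5p are closer still, with 2 different positions of the 21 they share, at positions 10 and 11. How far the array's probes separate such relatives was not tested.

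Of the 5 members, 3 were detected throughout and the others hardly at all. miR-15a-5p, miR-15b-5p and miR-16-5p were well above background on 22 of 22 arrays with both of their probes. miR-195a-5p was well above background on 1 array, a DMSO culture of experiment 3 at 24 h, and with only 1 of its 2 probes. miR-322-5p was not well above background on any array with either probe. Each probe had 20 spots per array, of which 12 to 20 entered the mean after spots marked as outliers by the scanner software were left out. Signals are given relative to the 75th percentile of 281 probes that every array measured well above background. On the log2 scale, signals below a common floor of 0.0471 were set to it. The floor is no strict limit of detection. miR-351-3p was above background on 2 arrays although its highest reading was 0.0427.

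The raw intensities show the same division. The probe used for miR-16-5p read 170 to 455 intensity units over the 22 arrays, with a median of 242. The probe used for miR-15a-5p read 88.8 to 185 with a median of 121, and that for miR-15b-5p read 65.6 to 153 with a median of 94.3. Probes differ in their binding, so these readings do not rank the members. The probe used for miR-195a-5p had a median of 0.719 and reached 21.8 on its single positive array, or 0.0583 after scaling, against at most 4.09 on the others. The probe used for miR-322-5p stayed between -2.13 and 4.14. In the authors' value table, where the lowest value is -1 on the log2 scale, miR-195a-5p exceeded that minimum in 1 of 22 columns, at 2.97, and miR-322-5p in 0 of 22.

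**Figure D1:**
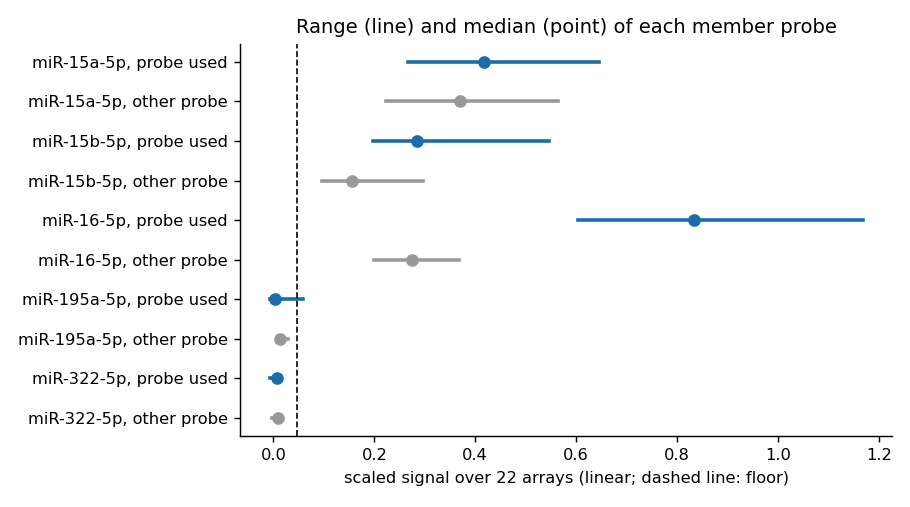
Scaled signal of each probe of the 5 members over the 22 arrays on a linear axis, with the line from the lowest to the highest array, the point at the median and the dashed line at the floor of 0.0471. Both probes of miR-15a-5p, miR-15b-5p and miR-16-5p lie above the floor on all arrays, whereas those of miR-195a-5p and miR-322-5p lie below it except for 1 array of miR-195a-5p at 0.0583; signals of different probes cannot be set against each other.

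The relatives of the family were also mostly undetected. Of the 10 mouse miRNAs in RefSeq's set that carry this seed, 3 were well above background on more than 1 array, and these are the 3 members above. miR-195b was above background on 1 array, the same DMSO culture that gave the miR-195a-5p reading, and miR-497-5p, miR-6342, miR-6353 and miR-6419 on 0. Of the 6 opposite arms, the strands left over from the same hairpins, 4 were never above background. miR-16-1-3p was so on that same DMSO array alone, and miR-195a-3p was on 5 arrays, reaching 0.175 after scaling. That array, DMSO replicate 5 at 24 h by the file names, held 16 miRNAs above background on no other array. A CsA culture of experiment 3 at 48 h stood further apart, with 25 such miRNAs and 400 detected by the scanner software. It is filed as 10 µM replicate 3 and is 50 µM replicate 3 in the value table. Values without 1 of these arrays are given for some of the results below, not for all. Of 11 neighbours on the transcripts of miR-195a and miR-322, 8 were never above background.

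Before the comparisons, a fault in the deposit has to be stated. The value table's columns were matched to the scanner files by rank, and each of the 22 columns had a Spearman correlation of 1 with a single array. For 16 columns that array was filed under another name, always with the same time and the same experiment. These were 8 CsA arrays under the other dose and 8 DMSO arrays under another number and the other tag. The files do not state which naming is right. How alike same-numbered experiments were differed between the namings, and whether this favours either naming was not tested. Treatment and time are the same under both, so the doses were pooled first, and each dose is then given under both namings. The scanner software detected 201 to 400 miRNAs per array and marked 2.19% to 10.3% of spots as outliers. The negative controls averaged 0.674 to 33.7 intensity units except on 1 array, a CsA culture of experiment 3 at 24 h filed as 10 µM replicate 3, at 215. Hepatocyte miRNAs were strong throughout, with miR-122-5p, the main liver miRNA, above background on 22 of 22 arrays, while the red cell miRNAs miR-451a and miR-144-3p were above background on 0. Of the 5 leukocyte miRNAs, miR-223-3p, miR-142-3p, miR-142-5p and miR-150-5p were above background on 0 arrays and miR-155-5p on 16, reaching 0.0967 after scaling. The endothelial miR-126-3p was above background on 20 arrays, reaching 0.233, and miR-126-5p on 0. The mesenchymal miR-145a-5p was so on 12, reaching 0.125, and the other mesenchymal miRNAs on 0.

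Values below are log2 of the scaled signal, so 0 is the 75th percentile. For miR-15a-5p at 24 h the CsA cultures read -0.63 in experiment 1, -1.26 and -1.45 in experiment 2 and -1.32 and -1.02 in experiment 3, and the DMSO cultures read -0.98 in experiment 1, -1.25 and -1.26 in experiment 2 and -1.32 and -1.05 in experiment 3. At 48 h the lowest, median and highest were -1.71, -1.37 and -0.83 with CsA and -1.91, -1.34 and -0.95 with DMSO. The groups overlapped at both times. The means were -1.14 ± 0.32 with CsA at 24 h, -1.17 ± 0.15 with DMSO at 24 h, -1.33 ± 0.31 with CsA at 48 h and -1.36 ± 0.37 with DMSO at 48 h (SD, n = 5 each at 24 h and n = 6 each at 48 h), and neighbours in that order differed by less than the larger of their SDs.

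miR-16-5p varied least, by 1.94-fold between its lowest and highest array. At 24 h the CsA cultures read 0.22 in experiment 1, -0.25 and -0.27 in experiment 2 and -0.21 and -0.24 in experiment 3, and the DMSO cultures read -0.15 in experiment 1, -0.35 and -0.13 in experiment 2 and -0.65 and -0.24 in experiment 3. At 48 h the lowest, median and highest were -0.63, -0.36 and 0.02 with CsA and -0.73, -0.30 and 0.00 with DMSO. The groups overlapped, and the single CsA culture of experiment 1 lay above the other 4 at 24 h. Group means ran from -0.15 ± 0.21 with CsA at 24 h, through -0.31 ± 0.21 with DMSO at 24 h and -0.33 ± 0.22 with CsA at 48 h, to -0.35 ± 0.25 with DMSO at 48 h, again with no neighbours apart by more than their SD.

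miR-15b-5p varied most, by 2.76-fold over the arrays. At 24 h the CsA cultures read -1.12 in experiment 1, -1.62 and -2.07 in experiment 2 and -2.01 and -1.82 in experiment 3, and the DMSO cultures read -0.996 in experiment 1, -1.57 and -1.13 in experiment 2 and -2.22 and -1.94 in experiment 3. At 48 h the lowest, median and highest were -2.34, -1.94 and -1.21 with CsA and -2.07, -1.32 and -0.87 with DMSO. The groups overlapped at both times. In order, the means were -1.48 ± 0.46 with DMSO at 48 h, -1.57 ± 0.52 with DMSO at 24 h, -1.73 ± 0.39 with CsA at 24 h and -1.88 ± 0.38 with CsA at 48 h, and neighbours lay closer than their SD.

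**Figure D2:**
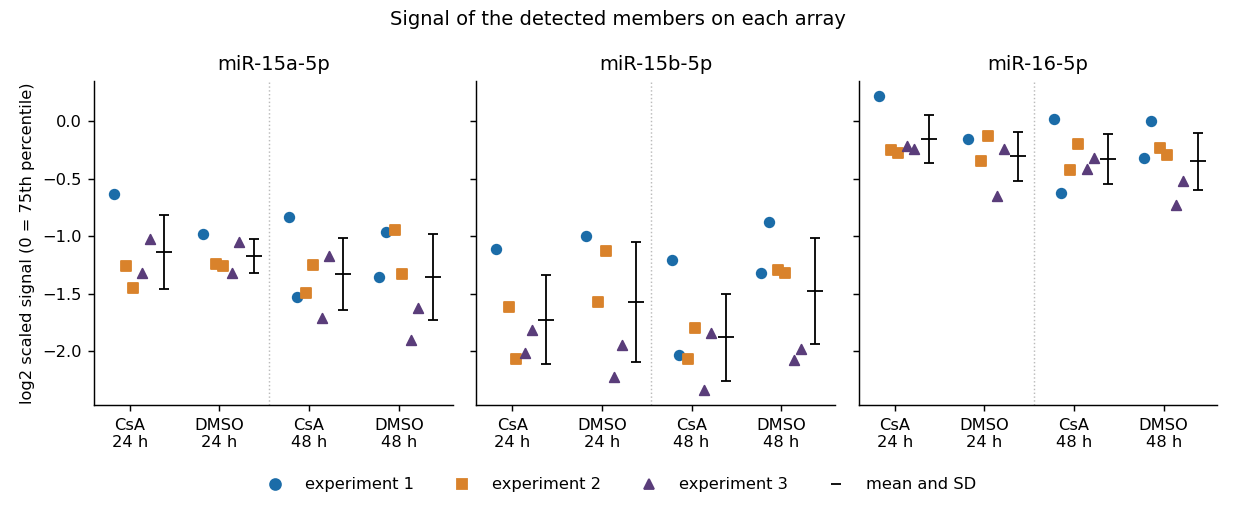
Log2 scaled signal of miR-15a-5p, miR-15b-5p and miR-16-5p on each of the 22 arrays, by treatment and time, with 1 point per array, the point's shape for the experiment number and bars for the mean and SD. CsA and DMSO arrays overlap for each of the 3 members at both times, and the experiment 3 arrays of miR-15b-5p lie between -2.34 and -1.82.

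The first question of the design was whether CsA changed these miRNAs relative to the solvent. With limma over the 289 miRNAs above background on at least 3 arrays, and Benjamini-Hochberg adjustment over all of them, none of the 3 tested members passed an adjusted p of 0.05 with the doses pooled. At 24 h the differences (CsA minus DMSO, ± SE) were 0.03 ± 0.19 for miR-15a-5p, -0.15 ± 0.27 for miR-15b-5p and 0.15 ± 0.14 for miR-16-5p. The share called among all 289 miRNAs was 0.0% at 24 h, with 19 at an unadjusted p under 0.05, and 0.346% did not overlap between CsA and DMSO. Their 95% confidence intervals at 24 h leave room for changes of up to 1.35-fold in miR-15a-5p, 1.64-fold in miR-15b-5p and 1.37-fold in miR-16-5p.

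At 48 h the differences were 0.02 ± 0.17 for miR-15a-5p and 0.02 ± 0.13 for miR-16-5p, both with an adjusted p over 0.9. For miR-15b-5p the difference was -0.40 ± 0.25, with an adjusted p of 0.287 and a 95% interval from -0.92 to 0.11. The background at 48 h was 1.04%, or 3 of 289 miRNAs, and 1.38% did not overlap between the groups, none of them a member. Within experiments the difference of miR-15b-5p was -0.52 in experiment 1, -0.62 in experiment 2 and -0.07 in experiment 3, each from 2 CsA and 2 DMSO arrays. Within slides it was -0.08 on slide 1 and 0.04 on slide 3, while slide 2 held no CsA array at 48 h. With the experiment number as a block, 24 of all 289 miRNAs were called at 48 h. miR-15b-5p missed the threshold in that fit, at an adjusted p of 0.108. Its difference there was -0.40 ± 0.16, and its 95% interval, from -0.75 to -0.06, excluded 0 before adjustment. With the slide added to that block the difference was -0.22 ± 0.15, with an interval from -0.54 to 0.10. The change in the CsA effect between times, 48 h minus 24 h, was -0.25 ± 0.36 for miR-15b-5p, -0.13 ± 0.20 for miR-16-5p and -0.01 ± 0.26 for miR-15a-5p, against a background of 0.0%.

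Culture time in the solvent alone also moved no member past the threshold. DMSO cultures at 48 h minus those at 24 h differed by 0.10 ± 0.26 for miR-15b-5p, -0.04 ± 0.14 for miR-16-5p and -0.19 ± 0.18 for miR-15a-5p, with a background of 0.0% and 38 of 289 miRNAs at an unadjusted p under 0.05. With the experiment number as a block, 10 miRNAs were called and none was a member.

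By dose, 12 comparisons set 50 µM against DMSO, 10 µM against DMSO or 50 µM against 10 µM, under either naming. No member was called in any of them in the fit without a block. With the experiment as a block, members were called at 48 h under the value table's names, for 50 µM against DMSO and against 10 µM, as given below. Over the 12 dose and the 4 pooled comparisons, 48 tests of members were made without a block. Of these, 0 passed the adjusted threshold and 2 had an unadjusted p under 0.05. Both belong to the value table's naming at 48 h. Under that naming the 50 µM arrays stood apart over the whole array, with 109 of 289 miRNAs called against DMSO (37.7%) and 82 against 10 µM (28.4%). Under the file names the same comparisons called 1 miRNA (0.346%) and 0 (0.0%). At 24 h, 50 µM against DMSO called 3.81% under the value table's names and 0.0% under the file names.

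miR-15b-5p was the member closest to the threshold at 50 µM. By the value table's names it read -2.03, -2.07 and -2.34 with 50 µM CsA at 48 h, and DMSO cultures ran from -2.07 to -0.87. A single DMSO culture, of experiment 3, lay among the CsA values, and 26.6% of all miRNAs did not overlap in this comparison. The difference was -0.67 ± 0.30, with a 95% interval from -1.29 to -0.05 and an adjusted p of 0.0813. Same-numbered experiments deviated together in this comparison. With the experiment as a block the difference stayed at -0.67 with an SE of 0.17 and an adjusted p of 0.00459. That fit called 155 of 289 miRNAs, against 109 without a block. Slide 1 carried all 3 of these CsA arrays and only 1 of the DMSO arrays of 48 h. On that slide the difference was -0.17, and with the slide as a block it was -0.31 ± 0.33 with an adjusted p of 0.536. The lowest value, -2.34, came from the CsA array with 25 miRNAs of its own, and without that array the difference was -0.57 ± 0.35 (adjusted p = 0.239). In the same comparison 37.7% of all 289 miRNAs were called, and some cell type markers were among them. The leukocyte miR-155-5p was higher by 0.73 (adjusted p = 0.00293) and the hepatocyte miR-192-5p was lower, at -0.47 (adjusted p = 0.0150). The other 3 hepatocyte miRNAs did not pass the test (miR-122-5p 0.05, miR-194-5p -0.29, miR-148a-3p -0.10), nor did miR-126-3p or miR-145a-5p. Over both doses at 48 h, the summed scaled signal of the 5 leukocyte miRNAs was 0.0442 to 0.0952 with CsA and 0.0468 to 0.0776 with DMSO, and that of the 4 hepatocyte miRNAs was 46.2 to 58.4 with CsA and 44.3 to 56.2 with DMSO. Most of the hepatocyte sum was miR-122-5p, so it says little of the other 3. The part of these cells in the result was not tested. By the file names the 50 µM cultures read -2.03, -1.85 and -1.80, and the difference was -0.42 ± 0.31 (adjusted p = 0.695).

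The other members were nearer to no change at 50 µM and 48 h by the value table's names. miR-15a-5p differed from DMSO by -0.22 ± 0.19 (adjusted p = 0.366) and miR-16-5p by -0.14 ± 0.15 (adjusted p = 0.482). At 10 µM and 48 h the differences by the same names were 0.27 ± 0.19 for miR-15a-5p, -0.14 ± 0.30 for miR-15b-5p and 0.18 ± 0.15 for miR-16-5p. Against 10 µM, which uses some of the same CsA arrays, 50 µM differed by -0.49 ± 0.22 for miR-15a-5p (adjusted p = 0.108), by -0.53 ± 0.34 for miR-15b-5p (adjusted p = 0.231) and by -0.32 ± 0.18 for miR-16-5p (adjusted p = 0.173). With the experiment as a block, the adjusted p in that comparison was 0.0466 for miR-15b-5p and 0.0893 for miR-16-5p. That of miR-15a-5p was 0.049998, at the edge of the threshold, and 117 of 289 miRNAs were called. All 3 arrays of 50 µM lay on slide 1, against 1 of the 3 arrays of 10 µM, so dose was largely tied to slide. With the slide added to the block, the adjusted p was 0.209 for miR-15b-5p and 0.165 for miR-15a-5p. With the slide alone as a block, these were 0.661 and 0.332. Both namings share the same DMSO arrays, so their results are not independent.

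**Figure D3:**
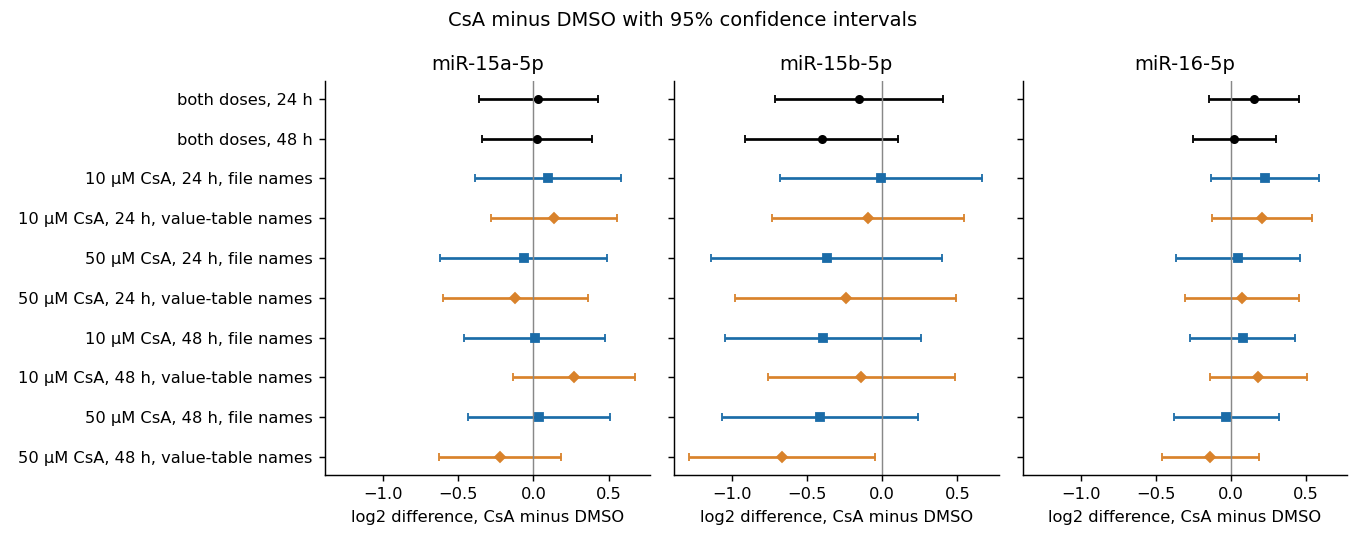
Log2 difference of CsA minus DMSO for miR-15a-5p, miR-15b-5p and miR-16-5p with 95% confidence intervals from limma, for both doses pooled (circles) and for each dose and time under the file names (squares) and the value table's names (diamonds). The intervals are from the fit without a block. They include 0 in each case except miR-15b-5p at 50 µM and 48 h under the value table's names. That interval runs from -1.29 to -0.05 before adjustment for the 289 miRNAs tested.

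The difference between miR-15b-5p and miR-15a-5p within each array does not depend on the array's scaling factor or on which naming holds. Its level cannot be read across probes, but its change between groups can. This quantity was chosen after the values had been seen, so it is given with no test. At 48 h it was -0.37 and -0.50 in experiment 1, -0.57 and -0.55 in experiment 2 and -0.63 and -0.67 in experiment 3 with CsA, and 0.04 and 0.09 in experiment 1, -0.35 and 0.01 in experiment 2 and -0.17 and -0.35 in experiment 3 with DMSO. All 6 CsA cultures lay below all 6 DMSO cultures. The mean difference was -0.50 in experiment 1, -0.39 in experiment 2 and -0.39 in experiment 3. The means were -0.55 ± 0.10 with CsA and -0.12 ± 0.20 with DMSO (SD, n = 6 each), a 1.34-fold lower ratio of miR-15b-5p to miR-15a-5p with CsA. Among all 12090 pairs of the 156 miRNAs above background on all arrays, 2.66% did not overlap between CsA and DMSO at 48 h, and the margin here was small, with the highest CsA culture at -0.37 and the lowest DMSO culture at -0.35.

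Each combination of the 2 probes of miR-15b-5p with the 2 probes of miR-15a-5p gave groups that did not overlap, with CsA minus DMSO between -0.59 and -0.42. The narrowest margin lay between a highest CsA culture at -0.190 and a lowest DMSO culture at -0.186. The combinations include the pair used above and read the same arrays, so they are no independent support. Under quantile normalization and in the authors' value table the groups overlapped, at -0.45 and -0.49. On slide 1 the CsA arrays averaged 0.21 below the single DMSO array, and on slide 3 they averaged 0.35 below the DMSO arrays, on the log2 scale.

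At 24 h the groups overlapped, with means of -0.59 ± 0.17 with CsA and -0.40 ± 0.48 with DMSO (SD, n = 5 each), and 2.52% of all pairs did not overlap. Within experiments the CsA cultures were lower in experiments 1 and 2, by -0.47 and -0.39, and higher in experiment 3, by 0.16. The difference between miR-15b-5p and miR-16-5p was -1.56 ± 0.24 with CsA and -1.13 ± 0.22 with DMSO at 48 h, although these groups overlapped. The difference between miR-15a-5p and miR-16-5p was -1.01 ± 0.17 with CsA and -1.01 ± 0.16 with DMSO at 48 h.

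**Figure D4:**
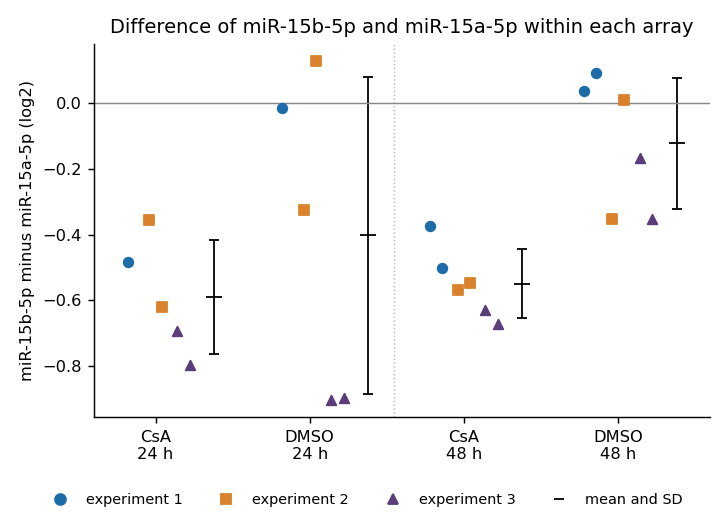
Difference of miR-15b-5p minus miR-15a-5p in log2 signal within each array, by treatment and time, with 1 point per array, shapes for the experiment number and bars for the mean and SD. At 48 h the 6 CsA arrays lie between -0.67 and -0.37 and the 6 DMSO arrays between -0.35 and 0.09, while at 24 h the groups overlap.

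miR-15b-5p also differed between the experiments. This comparison was added after the values had been seen, so its p-values describe these arrays and are no independent support. In a model with the 4 groups of treatment and time, miR-15b-5p was lower in experiment 3 than in experiment 1 by -0.79 ± 0.15 (adjusted p = 0.00131). miR-15b-5p ran from -2.34 to -1.82 in the 8 arrays of experiment 3, with a median of -1.997, and from -2.03 to -0.87 in the 6 arrays of experiment 1, with a median of -1.16. A single array of experiment 1, a CsA culture at 48 h, lay among those of experiment 3. The background was 34.3%, or 99 of 289 miRNAs, so calls were common in this contrast, and 2.08% of miRNAs did not overlap.

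miR-16-5p was also lower in experiment 3, by -0.30 ± 0.11 (adjusted p = 0.0455), and miR-15a-5p differed by -0.38 ± 0.15 (adjusted p = 0.0529). Both change sides of the threshold when single arrays are left out, miR-16-5p to an adjusted p of up to 0.151 and miR-15a-5p down to 0.014. Over the 24 alternative fits the difference of miR-15b-5p ran from -1.06 to -0.54. Without DMSO replicate 5 at 24 h it was -0.74 ± 0.15. Experiment 2 lay between, with miR-15b-5p at -0.37 ± 0.15 against experiment 1 (adjusted p = 0.371) and experiment 3 at -0.42 ± 0.14 against experiment 2 (adjusted p = 0.074), where 0.346% and 2.08% of all miRNAs were called.

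Other miRNAs moved between the experiments with miR-15b-5p. In experiment 3 relative to experiment 1, where 34.3% of all miRNAs were called, 2 of 4 hepatocyte miRNAs were called lower. These were miR-148a-3p by -0.43 and miR-192-5p by -0.29. Of the other cell types' lists, the endothelial miR-126-3p was lower by -0.50 and the mesenchymal miR-145a-5p higher by 0.65, and 16 of the 19 markers on these lists were above background on no array. The summed scaled signal of the 4 hepatocyte miRNAs was 44.3 to 62.6 in experiment 3 and 46.9 to 68.1 in experiment 1. Most of this sum was miR-122-5p, which alone reached 59.9, against at most 4.94 for the others. The summed signal of the 5 mesenchymal miRNAs was 0.0303 to 0.114 in experiment 3 and 0.0201 to 0.0569 in experiment 1, with miR-143-3p, miR-199a-3p, miR-199a-5p and miR-214-3p above background on no array. Their part in the result was not tested, and fewer cells of a type cannot be told apart from less RNA per cell in such samples.

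**Figure D5:**
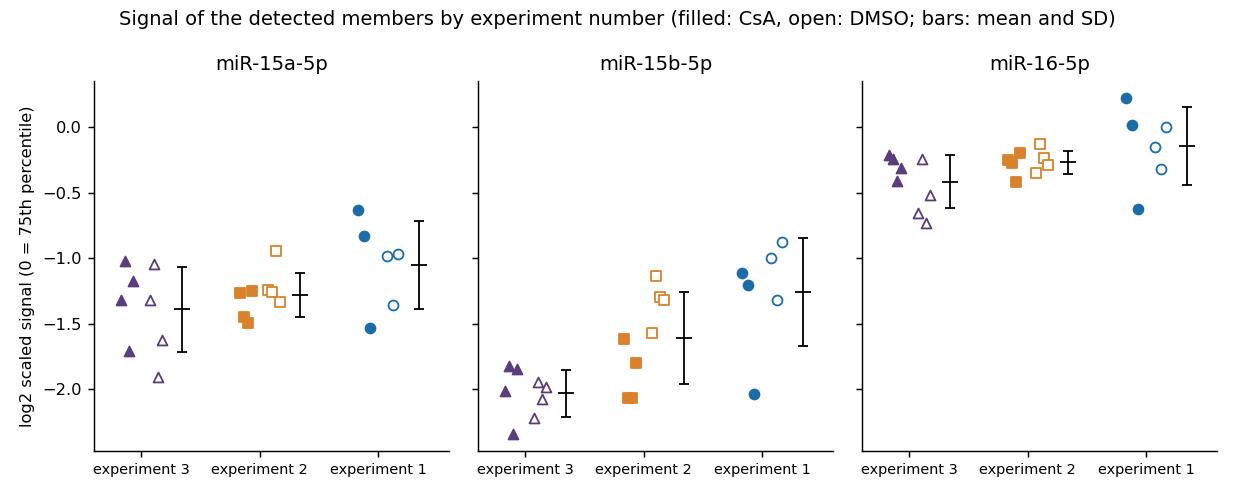
Log2 scaled signal of miR-15a-5p, miR-15b-5p and miR-16-5p by experiment number, with filled points for CsA, open points for DMSO, 1 point per array and bars for the mean and SD. miR-15b-5p averages -2.03 ± 0.18 in experiment 3 and -1.26 ± 0.41 in experiment 1 (SD, n = 8 and n = 6).

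The likeness of each member's pattern was measured as the SD, over the 22 arrays, of its log2 difference from each of the 155 other miRNAs above background on all arrays. miR-15a-5p was most like miR-29c-3p (SD 0.12), miR-26b-5p (0.14) and miR-148a-3p (0.15), with miR-16-5p in position 5 (0.17) and miR-15b-5p in position 41 (0.31). miR-16-5p was most like miR-30b-5p (0.10), let-7g-5p (0.13) and miR-29a-3p (0.13). miR-15b-5p was most like miR-350-3p (0.19), let-7a-5p (0.21) and miR-365-3p (0.24), and its own family came in positions 36 and 37. All points share their arrays, so the values describe these arrays only.

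Among the transcript neighbours, only miR-542-5p and miR-450a-2-3p, both made near miR-322 on the X chromosome, were above background on 3 or more arrays, at 12 and 6 of 22. miR-450a-2-3p was called higher with CsA at 48 h in the dose comparisons where the deposit's names disagree. By the value table's names it read -3.60, -3.34 and -3.30 with 50 µM CsA, of which 2 of 3 arrays were well above background, and all 6 DMSO cultures lay at the floor of -4.41, 1 of them marked as above background. The difference from that floor was 0.99 (adjusted p = 3.86e-08), and it missed the threshold in the authors' value table. The DMSO values at 48 h stand at the floor and so have no spread. The difference therefore gives no fold, and its p-values here and below do not measure a spread between DMSO cultures. Without the CsA array with 25 miRNAs of its own the difference was 0.94 and passed the threshold, against the same DMSO values at the floor. By the file names the call fell on 10 µM CsA, at 0.76 (adjusted p = 0.0386, background 6.23%), and leaving out single arrays moved that adjusted p between 9.67e-05 and 0.456, above 0.05 except without 10 µM replicate 1 or DMSO replicate 5. With the doses pooled the difference was 0.52 (adjusted p = 0.093), with 2 of 6 CsA and 1 of 6 DMSO cultures above background. miR-195a-3p, the opposite arm of miR-195a-5p, passed background in 0 of 6 CsA cultures at 48 h, against 1 of 6 DMSO cultures, and was called in none of the comparisons.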

How the data were processed

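Per the file headers, the deposited scanner output was made with Agilent Feature Extraction 10.7.3.1 and holds a background-corrected processed intensity per spot, with marks for spots well above background and for outliers. The authors also deposited a log2 value table. The sources used here do not give its normalization, and R 2.15.2 is named in the submitters' processing notes. From the scanner files, processed intensities of the non-outlier spots of a probe were averaged, divided by each array's 75th percentile (188 to 605) over 281 probes that every array measured well above background, floored at 0.0471 and log2-transformed. The brightest probe stood for a miRNA. Of 1247 miRNAs, the 289 with that probe well above background on at least 0.5 of its spots on 3 or more arrays were tested with limma 3.58.1 in R 4.3.3, with Benjamini-Hochberg adjustment over the 289. The fit was tried on simulated arrays without experiment or slide structure, with planted changes larger than the members' differences in the main settings. That no call had the wrong sign was a condition of the run. It therefore does not show how well changes as small as the members' would be found. Arrays carry no read depth, so their number limits the precision. Experiment numbers were taken to pair the arrays where same-numbered deviations correlated above 0.1 in each experiment: CsA and DMSO at 48 h (0.71, 0.39 and 0.77) did so, and those at 24 h (0.39, 0.05 and 0.30) did not. Among others, 50 µM CsA at 48 h by the value table's names also did so, against DMSO (0.36, 0.52 and 0.51) and against 10 µM (0.37, 0.28 and 0.43). By the file names it did not, against DMSO (-0.33, 0.45 and -0.01) or against 10 µM (-0.75, -0.66 and -0.26). For 10 µM against DMSO at 24 h the arrays did so by the file names (0.21, 0.16 and 0.35). By the value table's names they did not (0.58, -0.21 and 0.26). Named were the 5 members in every comparison, the 3 miRNAs most like each detected member, and relatives above background on 3 or more arrays. Members and lists were chosen with earlier results of these data known. Alternatives changed the scaling, background correction, probe summary, filter, blocks and arrays left out. For each dose against DMSO, another kept only the DMSO arrays with the tag of that dose. Keeping outlier spots, blocking by experiment and slide together, comparing experiments and taking differences within arrays were chosen after seeing the data. Arrays beyond the 22 were not analysed here.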

Additional observations from a re-analysis of the deposited data

Results flagged for a closer look

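Of 24 sets of arrays examined, each holding the values of a member or of a difference between members in a group of 5 or 6 arrays, 1 held an array far from the others, and chance alone gives such a case in about 1 of 20 sets. It was the miR-16-5p level of 0.223 (log2) in the CsA culture of experiment 1 at 24 h, filed as 10 µM replicate 1 under both namings, whose gap to the next CsA culture took up 0.872 of the group's range.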

How the results depend on the processing

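For the 16 comparisons between treatments, doses or times, the count of members called was 0 with the main settings. It stayed at 0 in 14 of them under each alternative run. The exceptions were both at 48 h under the value table's names. For 50 µM CsA against DMSO the count was 3 with scaling over all probes, 2 with normexp, and 1 each with quantile normalization, the authors' value table, the mean over probes, the total gene signal and the replicate block by experiment number (0 when the slide was added to that block), and leaving out single arrays gave 0 to 1. The call of 1 came without DMSO replicate 5 (adjusted p = 0.0469) or 6 (adjusted p = 0.0283), both of experiment 3 and numbered as in the value table. miR-15b-5p was the member called in each case, at -1.24 with scaling over all probes, which moved the median of all miRNAs to -0.13 against 0.15. For 50 µM against 10 µM the count was 1 with quantile normalization, normexp or the value table, in each case miR-15a-5p. It was 2 with the replicate block, and 0 when the slide was added to that block. With the replicate block, 155 of all 289 miRNAs were called for 50 µM against DMSO and 117 for 50 µM against 10 µM. The share of all miRNAs called is not given for the other settings, so these counts do not show members standing out from the background. The cause of the changed counts was not tested.

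For experiment 3 against experiment 1 the count was 2 with the main settings, 3 with scaling over all probes, and 1 with quantile normalization, normexp, the value table, the total gene signal, the stricter filter or the slide as a block, and leaving out single arrays gave 1 to 3. For experiment 3 against experiment 2 it was 0, 1 with the slide as a block, and 0 to 1 leaving out single arrays, with 1 without CsA 50 µM replicate 3 at 48 h. Among all 289 miRNAs, experiment 3 against experiment 1 called 99 with the main settings and 75 with the slide as a block. Experiment 3 against experiment 2 called 6 and 38. The pooled doses at 48 h gave 3 calls among all miRNAs, 24 with the replicate block and 1 with the slide as a block. The replicate block changed no other call of a member. Faint signals limit what can be said of miR-195a-5p and miR-322-5p, which were too dim to test.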
